A study of Mus musculus with 12 samples.

Results

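Messenger RNA of 38 genes that drive the cell cycle and DNA replication was followed across 12 libraries of mouse bone-marrow derived macrophages. The 38 genes were taken by their symbols from a table of 24728 genes. They fall into 5 role groups: 11 mitotic cyclins, kinases and checkpoint genes, 11 genes of the spindle, kinetochore, chromosomes and cytokinesis, 10 genes of origin licensing and the replicative helicase, 4 genes of deoxynucleotide supply, and 2 drivers of entry into S phase. All 38 had enough counts to be tested, with 46 to 8628 counts per library.

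The libraries were made from macrophages that carry the red fluorescent protein dTomato, purified by flow cytometry after ex vivo assays with dissociated brain tumor. The groups are Control, Myelin Alone, Full Tumor and Tumor without Myelin. Each of the 4 holds 3 libraries with the mn numbers 957, 958 and 016. The study asks how macrophages that take up myelin, the lipid-rich sheath of axons, act in brain cancer. The labels give no genotype, strain, age or exposure time for these libraries, and they do not say what mn stands for, what the Control cells received, which tumor model gave the material or whether libraries of the same group are from different animals. P-values therefore measure the spread between these libraries, which may be technical.

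Cells copy their DNA in S phase and divide in M phase. Before S phase, the MCM2 to MCM7 proteins are loaded onto replication origins and later unwind the DNA as the core of the helicase, while ribonucleotide reductase and thymidylate synthase supply the deoxynucleotides. Mitosis is driven by cyclin B with the kinase CDK1, helped by the Polo-like and Aurora kinases, and is checked by BUB1 and BUB1B at the kinetochore. Macrophages grown from bone marrow divide in response to the growth factor CSF1 and slow as they mature, so the RNA of these genes is commonly read as a sign of cycling cells. In bulk RNA, fewer cycling cells and less RNA per cell cannot be told apart.

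The promoters of such genes are known for 3 short elements: the CHR element (searched as TTTGAA), the CCAAT box (CCAAT) and E2F sites (TTCCCGC or TTGGCGC). RefSeq start-site windows on GRCm38.p6, from 250 bases before to 50 after the start, were matched by symbol for 33 of the 38 genes, in 35 windows; Aurkb, Ccna2, Gins2, Mcm4 and Tpx2 had none. Letters were searched on both strands, and matches of different elements overlapped in 3 of these windows. A CHR match was present in 75.0% of the 20 windows of the mitotic and spindle genes, in 13.3% of the 15 windows of the other role groups and in 17.9% of all 32851 windows. CCAAT matches were present in 90.0%, 66.7% and 37.4% of these windows, and E2F matches in 15.0%, 46.7% and 6.81%. A match is a description of the letters, not a bound site.

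The 250 bases before the start are shown for 7 genes, 5′ to 3′ on the gene's strand, with matches to any of the 3 elements in capitals. Cdk1, Top2a and Ccnb2 stand for the mitotic genes, and their windows hold both CHR and CCAAT matches.
Cdk1, chr10:69352913-69353162, minus strand: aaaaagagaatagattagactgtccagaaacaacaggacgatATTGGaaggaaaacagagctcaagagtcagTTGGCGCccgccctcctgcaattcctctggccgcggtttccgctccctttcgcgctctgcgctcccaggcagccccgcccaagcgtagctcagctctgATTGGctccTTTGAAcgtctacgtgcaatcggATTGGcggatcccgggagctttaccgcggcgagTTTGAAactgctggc
Top2a, chr11:99024190-99024439, minus strand: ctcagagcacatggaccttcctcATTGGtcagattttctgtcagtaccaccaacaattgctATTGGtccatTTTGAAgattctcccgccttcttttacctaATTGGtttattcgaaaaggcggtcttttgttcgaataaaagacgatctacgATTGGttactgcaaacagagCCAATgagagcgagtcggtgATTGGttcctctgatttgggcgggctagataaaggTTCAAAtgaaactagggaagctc
Ccnb2, chr9:70421555-70421804, minus strand: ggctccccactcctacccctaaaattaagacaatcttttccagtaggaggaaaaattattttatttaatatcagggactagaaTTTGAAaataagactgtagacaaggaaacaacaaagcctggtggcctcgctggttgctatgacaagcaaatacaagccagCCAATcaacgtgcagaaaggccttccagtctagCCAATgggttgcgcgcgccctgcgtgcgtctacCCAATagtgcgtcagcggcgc
Mcm5 and Mcm6 stand for the replication genes with E2F matches, and Mcm2 is the gene whose level passed a test between groups when the mn number was held fixed; its window holds a CHR and a CCAAT match.
Mcm5, chr8:75109259-75109508, plus strand: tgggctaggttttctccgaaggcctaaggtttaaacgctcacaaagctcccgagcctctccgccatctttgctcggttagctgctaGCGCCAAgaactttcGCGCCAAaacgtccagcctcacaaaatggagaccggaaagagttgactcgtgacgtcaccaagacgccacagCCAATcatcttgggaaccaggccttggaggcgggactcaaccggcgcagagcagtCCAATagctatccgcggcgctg
Mcm6, chr1:128359706-128359955, minus strand: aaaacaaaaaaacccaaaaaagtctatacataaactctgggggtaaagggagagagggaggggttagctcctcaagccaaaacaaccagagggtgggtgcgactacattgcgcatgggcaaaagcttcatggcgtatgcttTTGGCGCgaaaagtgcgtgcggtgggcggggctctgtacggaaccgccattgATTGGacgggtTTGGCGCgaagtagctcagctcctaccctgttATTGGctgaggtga
Mcm2, chr6:88898781-88899030, minus strand: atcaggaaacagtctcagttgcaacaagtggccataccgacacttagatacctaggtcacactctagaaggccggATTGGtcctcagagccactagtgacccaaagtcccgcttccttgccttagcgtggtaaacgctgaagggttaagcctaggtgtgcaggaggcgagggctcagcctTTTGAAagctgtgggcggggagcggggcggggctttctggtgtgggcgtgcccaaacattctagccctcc
Pcna, the sliding clamp of the replication fork, is shown because its level did not follow the other genes. It has a CCAAT match only. So do Rrm2, Bub1 and Cenpe, whose levels were higher in every library of mn 016 than in any other library. Birc5, Nusap1, Ccne1 and Tyms, without a match to any element, had that same order. Tk1 and E2f1, also without a match, did not. Whether the matches bear on the levels was not tested.
Pcna, chr2:132253181-132253430, minus strand: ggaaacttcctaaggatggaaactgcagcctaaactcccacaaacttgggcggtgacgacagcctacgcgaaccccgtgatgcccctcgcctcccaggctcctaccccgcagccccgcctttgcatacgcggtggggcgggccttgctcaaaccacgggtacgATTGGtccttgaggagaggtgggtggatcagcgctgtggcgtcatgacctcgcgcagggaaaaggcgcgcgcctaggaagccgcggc

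Libraries held 17071673 to 21689624 counts in all and 16465 to 17861 detected genes. The 11 macrophage markers summed to 14350 to 19390 CPM, the counts scaled to library size, in every library. CPM were corrected by TMM factors and are compared between libraries but not between genes, since gene length is not removed. Of the 38 genes, 14 overlap another gene of the table, among them Ccna2, Plk1, Mki67, Prc1, Mcm7, Rrm1 and Tk1. Pseudogenes named after Ccnb1, Ccnb2, Pcna and Tyms are also listed there. How strand was treated in counting is not given in the sources used here. Reads of overlapping genes or near-identical copies cannot be told apart for these genes.

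The main axis of variation was the mn number. The genes took 0.261% to 0.494% of all counts in the 4 libraries of mn 016, and 0.118% to 0.204% in the 8 libraries of mn 957 and 958. Their summed level was 2649 to 5126 CPM in mn 016, 1331 to 1921 CPM in mn 958 and 1192 to 1466 CPM in mn 957, with no overlap between mn 016 and the others. With the group held fixed, edgeR's quasi-likelihood test called 36 of 38 genes for the mn number, where 34.9% of the 13414 tested genes were called. Of the 38, 31 had all 4 libraries of mn 016 above the 8 others, a pattern found in 8.12% of tested genes. The labels do not say whether the number marks a mouse, a litter, a date or a batch, and what it marks cannot be told apart here.

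**Figure D1:**
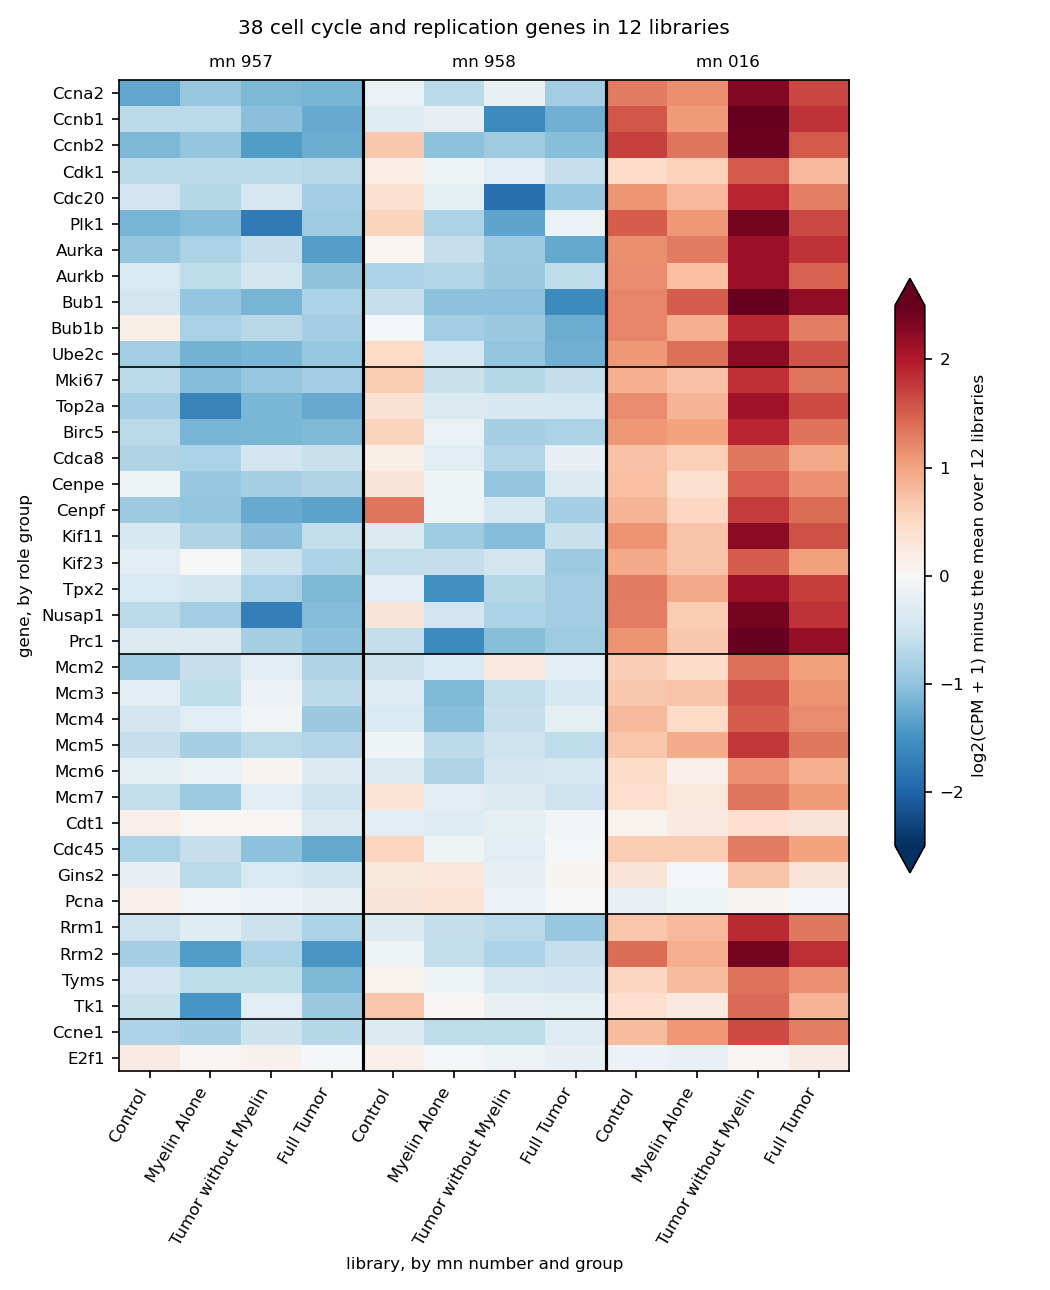
Level of each of the 38 genes (rows, by role group) in each of the 12 libraries (columns, by mn number and group), as log2(CPM + 1) minus the gene's mean over the libraries; colours end at 2.5 in either direction. The 4 columns of mn 016 are high for nearly every gene, Tumor without Myelin most of all, and the rows of Pcna and E2f1 stay pale.

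By median, the mitotic cyclins and kinases differed more than the other roles between mn 016 and each of the other numbers. Their 11 genes were all called higher in mn 016 than in mn 957 (1.58 to 3.17 on the log2 scale, median 2.78) and than in mn 958 (1.07 to 3.27, median 2.24); over all 38 genes the counts were 35 and 34, all higher, where 15.0% and 38.6% of tested genes were called, and 8.47% and 21.0% were called higher. Plk1, the Polo-like kinase that acts from mitotic entry to cytokinesis, was at 3.19 to 6.66 CPM in mn 957, 4.74 to 19.8 CPM in mn 958 and 29.2 to 73.6 CPM in mn 016. The libraries of mn 016 were all above the rest, and the highest of the others was Control 958. Its log2 fold change was 3.17 ± 0.42 (SE) for mn 016 over 957 (adjusted p = 0.000965, edgeR) and 2.20 ± 0.41 over 958 (adjusted p = 0.00169). Ccna2, the cyclin of S phase and early mitosis, had 7.08 to 9.33, 9.81 to 16.6 and 43.1 to 97.0 CPM in mn 957, 958 and 016, and a log2 fold change of 2.89 ± 0.24 for mn 016 over 957. Ccnb1, the cyclin of mitotic entry, had 10.9 to 17.2, 8.57 to 23.9 and 59.4 to 162.9 CPM, and Ccnb2, its close relative, 8.63 to 11.9, 11.1 to 39.5 and 62.5 to 136.4 CPM. For Cdk1, their kinase partner, the gap was smaller: 30.4 to 31.4, 33.2 to 56.6 and 70.0 to 146.3 CPM. Bub1, the checkpoint kinase, had the largest log2 fold change over mn 958, 3.27 ± 0.37, and Aurkb, the kinase of the chromosomal passenger complex, rose by 2.12 ± 0.25 over mn 957 and 2.27 ± 0.25 over mn 958.

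The 11 spindle and chromosome genes were likewise all called higher in mn 016 (medians 2.29 over mn 957 and 1.68 over mn 958). Mki67, which coats mitotic chromosomes and encodes the Ki-67 proliferation marker, was at 20.3, 51.2 and 61.4 CPM in Control, at 14.8, 21.97 and 55.1 CPM in Myelin Alone, at 17.7, 21.3 and 84.6 CPM in Full Tumor and at 16.4, 19.5 and 118.3 CPM in Tumor without Myelin (mn 957, 958 and 016 in each). In all groups mn 016 was highest, and Control 958 came close to Control 016. The log2 fold change was 2.21 ± 0.29 over mn 957 (adjusted p = 0.000946, edgeR) and 1.54 ± 0.29 over mn 958 (adjusted p = 0.00186). Top2a, the topoisomerase that untangles sister chromatids, differed between all 3 numbers: 13.9 to 25.2 CPM in mn 957, 33.7 to 60.4 in mn 958 and 83.5 to 200.7 in mn 016. Birc5, a passenger complex subunit also called survivin, had log2 fold changes of 2.49 ± 0.30 and 1.68 ± 0.29 for mn 016 over 957 and 958, while its values in mn 957 and 958 overlapped. Prc1, which bundles the microtubules of the central spindle, gained 3.00 ± 0.42 over mn 958.

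Replication genes differed by less, and not all of them did. Of the 10 licensing and helicase genes, 8 were called higher in mn 016 than in mn 957 (median of the 10, 1.42) and 8 than in mn 958 (median 1.05). Mcm2, a helicase subunit, was at 24.7, 31.4 and 71.0 CPM in Control, 30.7, 35.05 and 63.8 in Myelin Alone, 26.9, 38.2 and 94.9 in Full Tumor and 37.8, 54.8 and 121.2 in Tumor without Myelin, in the order 957, 958 and 016. Each group kept that order. Mcm5 was at 35.5 to 42.4, 40.0 to 59.4 and 104.1 to 219.6 CPM in mn 957, 958 and 016. The genes outside the pattern were Pcna (adjusted p = 0.249 for the mn number, edgeR; 323.8 to 476.2 CPM over the 12 libraries), Cdt1, the licensing factor, over mn 957 (0.31 ± 0.13, adjusted p = 0.127) and Gins2, a helicase cofactor, over mn 958 (0.22 ± 0.18, adjusted p = 0.372). For Pcna, values of mn 016 lay within the range of the other libraries.

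In deoxynucleotide supply, Rrm2, the regulatory subunit of ribonucleotide reductase, was at 23.1 to 37.4 CPM in mn 957, 37.99 to 60.2 in mn 958 and 122.6 to 348.9 in mn 016. Its log2 fold changes were 2.84 ± 0.25 and 2.19 ± 0.24 for mn 016 over 957 and 958. Tyms, thymidylate synthase, rose by 1.76 ± 0.22 and 1.25 ± 0.22. Tk1, the thymidine salvage kinase, rose over mn 957 by 1.60 ± 0.26, but its difference from mn 958 missed the threshold (0.66 ± 0.26, adjusted p = 0.0635, edgeR). Of the drivers of S phase entry, Ccne1, the cyclin that activates CDK2, rose by 2.00 ± 0.18 and 1.74 ± 0.17. E2f1, a transcription factor for S phase genes, was at 40.5 to 53.9 CPM in all 12 libraries, and its 3 numbers overlapped (adjusted p = 0.63 for the mn number).

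Fewer of the genes were called between mn 958 and 957. Top2a (1.09 ± 0.23, adjusted p = 0.0239, edgeR), Cdc45, a helicase subunit (1.03 ± 0.25, adjusted p = 0.0363), and Tk1 (0.95 ± 0.26, adjusted p = 0.0489) were called higher in mn 958, 3 of 38 where 7.42% of tested genes were called and 2.59% were called higher. At an unadjusted p under 0.05 the count was 14 of 38, where 25.8% of tested genes passed, and DESeq2 called 10, all higher, where it called 14.9% of tested genes. Cenpf, a kinetochore protein of late cell cycle, had the highest value, 1.43 ± 0.44, and did not pass (adjusted p = 0.0697). At the other end, Prc1 had −0.53 ± 0.41 and Mcm6 −0.34 ± 0.15, neither called. The median over the 38 genes was 0.36. Among the 4 libraries of mn 958, Control was the highest for 29 of 38 genes, against 24.0% of tested genes. The count of calls was 0 without Control 957, Control 958, Myelin Alone 957, Myelin Alone 958 or Tumor without Myelin 957 and 1 without Full Tumor 957 or Full Tumor 958.

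**Figure D2:**
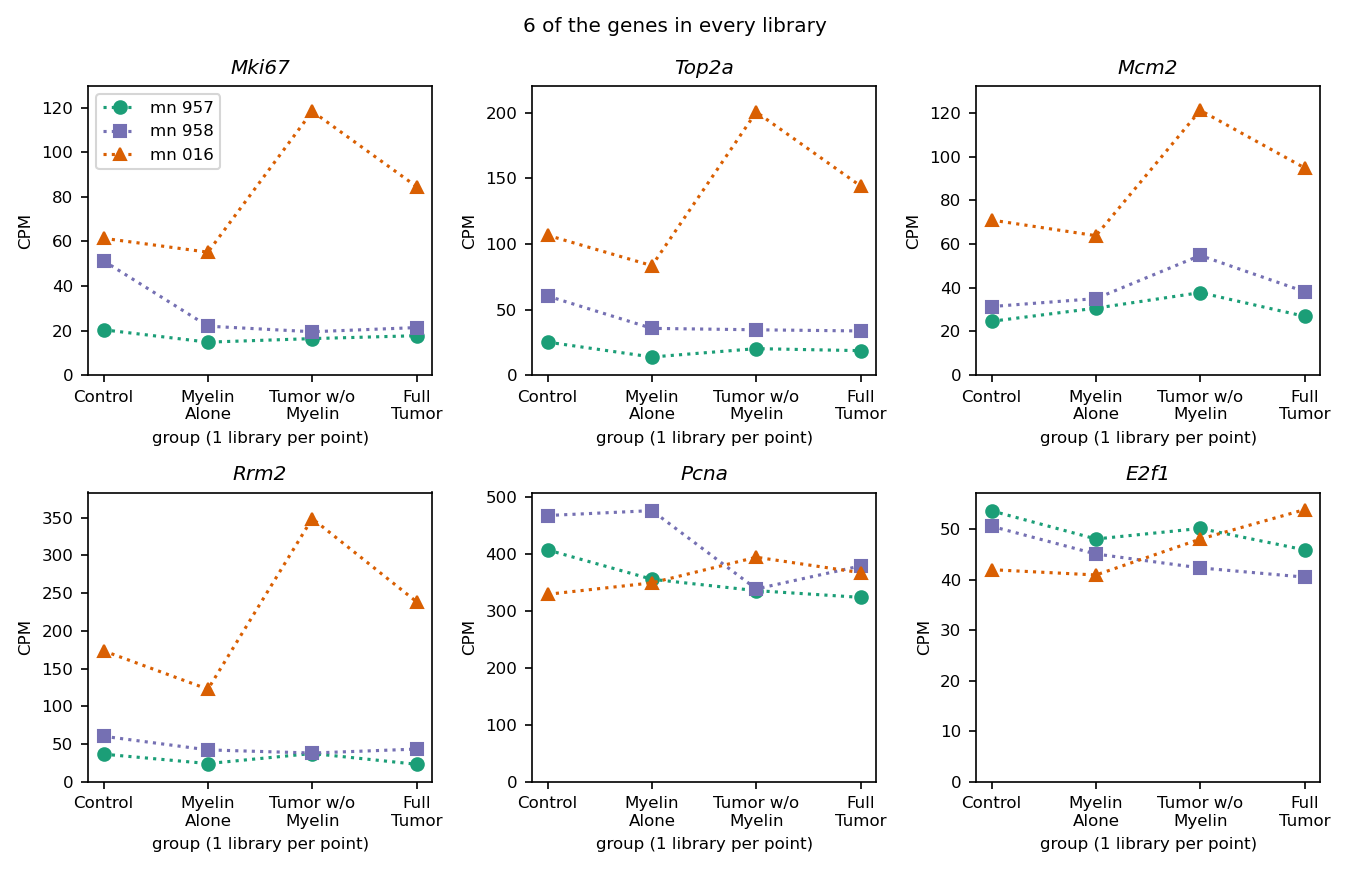
Level in CPM (vertical axis, from 0) of 6 genes in each group (horizontal axis), with 1 point per library, coloured by mn number; dotted lines join libraries of the same number. Mki67, Top2a, Mcm2 and Rrm2 are highest in mn 016 in every group, while the 3 numbers overlap for Pcna and E2f1.

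No comparison between the groups called any of the 38 genes when group was the only term in the fit. In edgeR's quasi-likelihood test 0 of 38 were called, and 0 had an unadjusted p under 0.05, in each of the 5 pairwise comparisons, in the pooled tumor and myelin effects and in their interaction; DESeq2 also called 0. Among all tested genes 0.0% were called in each, except 0.0745% in the pooled tumor effect. The groups overlapped for every gene in the 5 pairwise comparisons, where 5.78%, 7.69%, 8.1%, 5.02% and 6.75% of tested genes did not overlap (Control against Myelin Alone, against Tumor without Myelin and against Full Tumor, then Full Tumor against Tumor without Myelin and against Myelin Alone). Mki67, for example, was at 44.3 ± 21.4 CPM in Control, 30.6 ± 21.5 in Myelin Alone, 41.2 ± 37.6 in Full Tumor and 51.4 ± 58.0 in Tumor without Myelin (SD, n = 3). In Full Tumor and Tumor without Myelin the SD was close to the mean or above it, and in Control and Myelin Alone it was smaller than the mean.

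**Figure D3:**
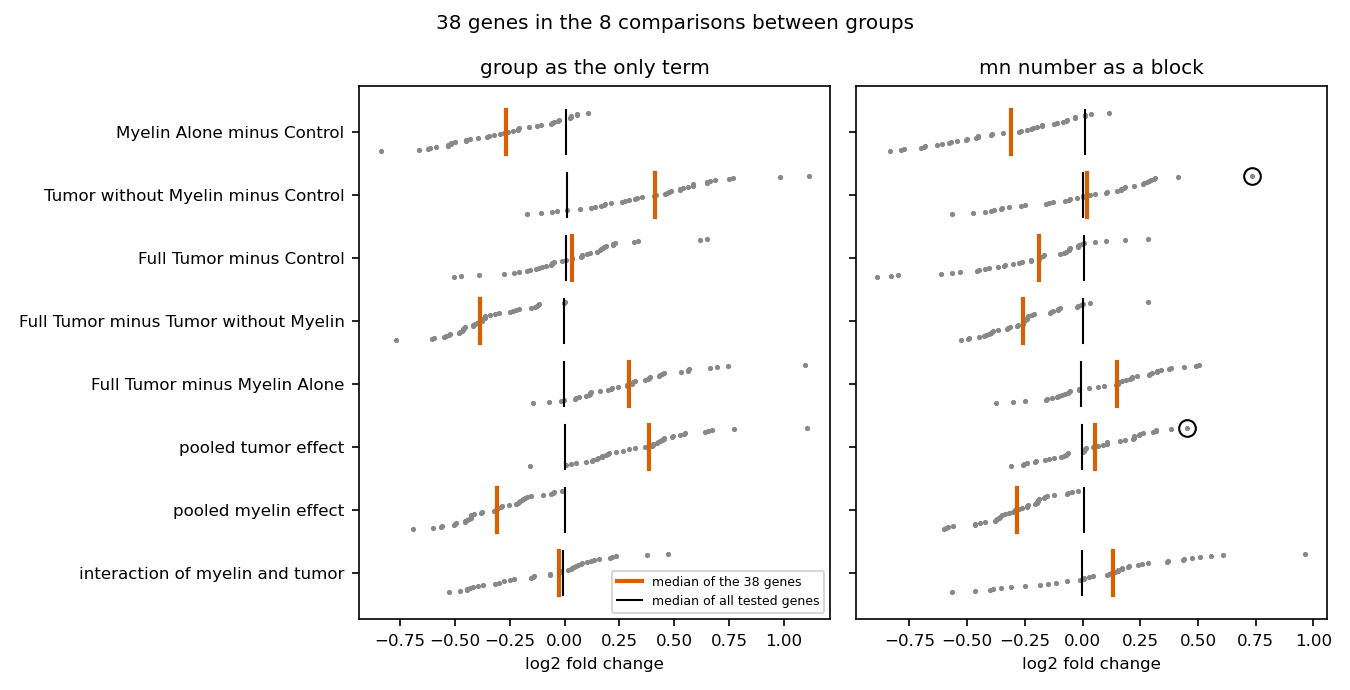
Log2 fold change (horizontal axis) of the 38 genes (grey points) in 8 comparisons between groups (vertical axis), from the fit with group only (left) and with the mn number as a block (right); orange bars are the median of the 38 genes and black bars that of all tested genes. The 2 circled points, both Mcm2 with the block, are the values with an adjusted p under 0.05.

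As a description, the medians of the 38 genes lay off 0 in some comparisons, while those of all tested genes lay between −0.01 and 0.01. With group only they were −0.27 for Myelin Alone minus Control, 0.41 for Tumor without Myelin minus Control, 0.03 for Full Tumor minus Control, −0.38 for Full Tumor minus Tumor without Myelin and 0.29 for Full Tumor minus Myelin Alone. Several of these share control libraries and are not independent. The mn numbers pair the libraries, and with the number as a block the same medians were −0.31, 0.02, −0.19, −0.26 and 0.15. The pooled tumor effect fell from a median of 0.38 to 0.06 with the block, and without the 4 libraries of mn 016 it was −0.29. At the ends of the comparisons stood Prc1 (1.11 ± 1.16 in Tumor without Myelin minus Control and 0.65 ± 1.15 in Full Tumor minus Control), Bub1 (0.98 ± 1.29 and 0.62 ± 1.28), Ccnb2 (−0.50 ± 1.15 in Full Tumor minus Control) and Cenpf (−0.84 ± 0.97 in Myelin Alone minus Control), with group only. None of them passed, and the standard errors exceeded the values.

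Of the 38 genes, only Mcm2 was called between groups when the mn number was held fixed. In the pooled tumor effect, 1 call among 38 genes lies near the share of all tested genes called. It was higher in Tumor without Myelin than in Control in all 3 numbers, by 0.73 ± 0.15 on the log2 scale (adjusted p = 0.049, edgeR with the block), where 0.745% of tested genes were called and 0.559% were called higher. In the pooled tumor effect it was higher by 0.45 ± 0.10 (adjusted p = 0.0484), where 2.25% were called and 1.63% were called higher. Both values stand at the threshold. With the block, the first call held in 2 and the second in 1 of the 12 fits that each left out a library (adjusted p 0.0313 to 0.232 and 0.0227 to 0.142), namely without Myelin Alone 957 or Myelin Alone 016, and without Myelin Alone 957. The direction was the same in all of them. With the block and either RLE size factors or library totals in place of TMM, neither call held (adjusted p for Mcm2 in Tumor without Myelin minus Control 0.0515 and 0.0657, and in the pooled tumor effect 0.0501 and 0.0677, edgeR). Full Tumor minus Tumor without Myelin gave −0.45 ± 0.15 for Mcm2 and was not called (adjusted p = 1.0, edgeR). No other gene was called with the block in any of the 8 comparisons, while 0.0373% of tested genes were called in Myelin Alone minus Control, 0.813% in Full Tumor minus Control, 0.112% in Full Tumor minus Myelin Alone and in the pooled myelin effect, and 0.0% in Full Tumor minus Tumor without Myelin and in the interaction.

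No gene passed the test of the pooled myelin effect. All 38 genes had a negative log2 fold change in the pooled myelin effect, with a median of −0.31 with group only and −0.28 with the block. Single libraries moved these medians. Without Tumor without Myelin 016 the fit on groups gave a median of 0.362, and the fit with the block −0.0855. The fit on groups gave −0.898 without Full Tumor 016 and −0.697 without Myelin Alone 016. The lowest with the block were Bub1b, a spindle checkpoint kinase (−0.60 ± 0.20, adjusted p = 0.482, edgeR), and Ccnb2 (−0.59 ± 0.28, adjusted p = 0.717). The highest were Pcna (−0.02 ± 0.09) and Cdt1 (−0.05 ± 0.10). With the block 5 genes had an unadjusted p under 0.05 (Bub1b, Tk1, Top2a, Rrm2 and Mcm3), where 7.13% of tested genes had. Within the numbers, the median difference in log2(CPM + 1) was −0.147 in mn 957, −0.245 in mn 958 and −0.321 in mn 016. Between the tumor libraries of mn 958, Full Tumor minus Tumor without Myelin had a median of 0.00334, with 19 genes higher and 19 lower. Bub1b, Cenpf, Mcm7, Tk1, Top2a and Tpx2 were lower with myelin in all 6 same-numbered pairs, 6 of 38 genes where 2.86% of tested genes were. Whether the myelin effect depends on the mn number was tested, and 0 genes passed, with 0 at an unadjusted p under 0.05 and 0 in DESeq2 (0.0% of tested genes called).

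The tumor difference had unlike directions in the 3 numbers. In mn 016 all 38 genes were higher in the 2 libraries with tumor (median 0.73 from the fit), and 37 of 38 had both tumor libraries above both others, where 25.4% of tested genes had. In mn 958 the median was −0.41, and 20 genes had both tumor libraries below both others, where 19.3% of tested genes had. In mn 957 the median was −0.13, with 10 genes below (16.9% of tested genes) and 3 above (16.3% of tested genes). For 20 of the 38 genes both tumor libraries were below both others in mn 958 and above both in mn 016. Opposite layouts in these 2 numbers, counted in either direction, were found in 6.02% of tested genes. The order Tumor without Myelin, Full Tumor, Control, Myelin Alone was found for 25 genes in mn 016. The share of all tested genes with this order was not counted. Tumor without Myelin was the highest in mn 016 for 37 genes, where 25.3% of tested genes had that group highest.

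Within mn 016, edgeR called 5 genes, all higher with tumor, where 1.48% of tested genes were called and 1.04% were called higher. They were Prc1 (1.59 ± 0.28, adjusted p = 0.0209), Rrm2 (0.98 ± 0.18, adjusted p = 0.0246), Mcm7 (0.86 ± 0.15, adjusted p = 0.0208), Rrm1, the catalytic subunit of ribonucleotide reductase (0.85 ± 0.17, adjusted p = 0.0388), and Mcm6 (0.73 ± 0.14, adjusted p = 0.0337). In the order Control, Myelin Alone, Tumor without Myelin, Full Tumor, Prc1 was at 29.6, 21.4, 91.4 and 62.8 CPM there, and Rrm2 at 173.5, 122.6, 348.9 and 238.6 CPM. In both genes the lower tumor library was above the higher of the others. Within mn 958, 2 genes were called, both lower with tumor, where 1.49% of tested genes were called and 0.239% were called lower: Ccnb1 (−1.20 ± 0.25, adjusted p = 0.0405) and Birc5 (−1.06 ± 0.22, adjusted p = 0.041). Ccnb1 was at 22.3, 23.9, 8.57 and 11.4 CPM in these libraries. Within mn 957, 0 of 38 were called (4 at an unadjusted p under 0.05; 0.887% of tested genes called). Each of these rests on 2 libraries against 2 in a fit with 5 residual degrees of freedom. The 2 libraries of a side are from different groups, so no group is repeated within a number. These p-values therefore do not measure the spread between replicates of a group. DESeq2 called 17 genes within mn 016 and 7 within mn 958, where it called 4.53% and 3.82% of tested genes. Without the filter on low counts edgeR called 10 and 5, where 1.31% and 1.33% of genes were called. The counts also changed with single libraries. In mn 016 the count was 0 without Control 016, Tumor without Myelin 016 or Full Tumor 016 and 2 without Myelin Alone 016. In mn 958 it was 0 without Control 957, Control 958, Myelin Alone 957, Tumor without Myelin 957, Tumor without Myelin 958 or Full Tumor 957, 1 without any 1 library of mn 016 and 3 without Myelin Alone 958.

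The test of the difference itself, tumor effect by mn number, called 0 of 38 genes in edgeR, where 0.41% of tested genes were called, with 28 at an unadjusted p under 0.05 against 9.86% of tested genes. The lowest adjusted p was that of Mcm7 (0.0509), followed by Ccnb1 (0.0548). DESeq2, with the same terms, called 20 of 38 where 2.37% of tested genes were called. Ccnb1 (adjusted p = 4.16e-06) and Mcm7 (2.67e-05) led that list. The fit without the filter on low counts called 12 (0.72% of tested genes). In edgeR the count was 3 without Myelin Alone 958 or Full Tumor 958 and 0 without any other single library. Whether the tumor effect on these genes was called as different between numbers depended on the tool, the filter and these libraries. Earlier results of these data had shown the sign of a proliferation list changing with the number, so this test is no independent support.

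**Figure D4:**
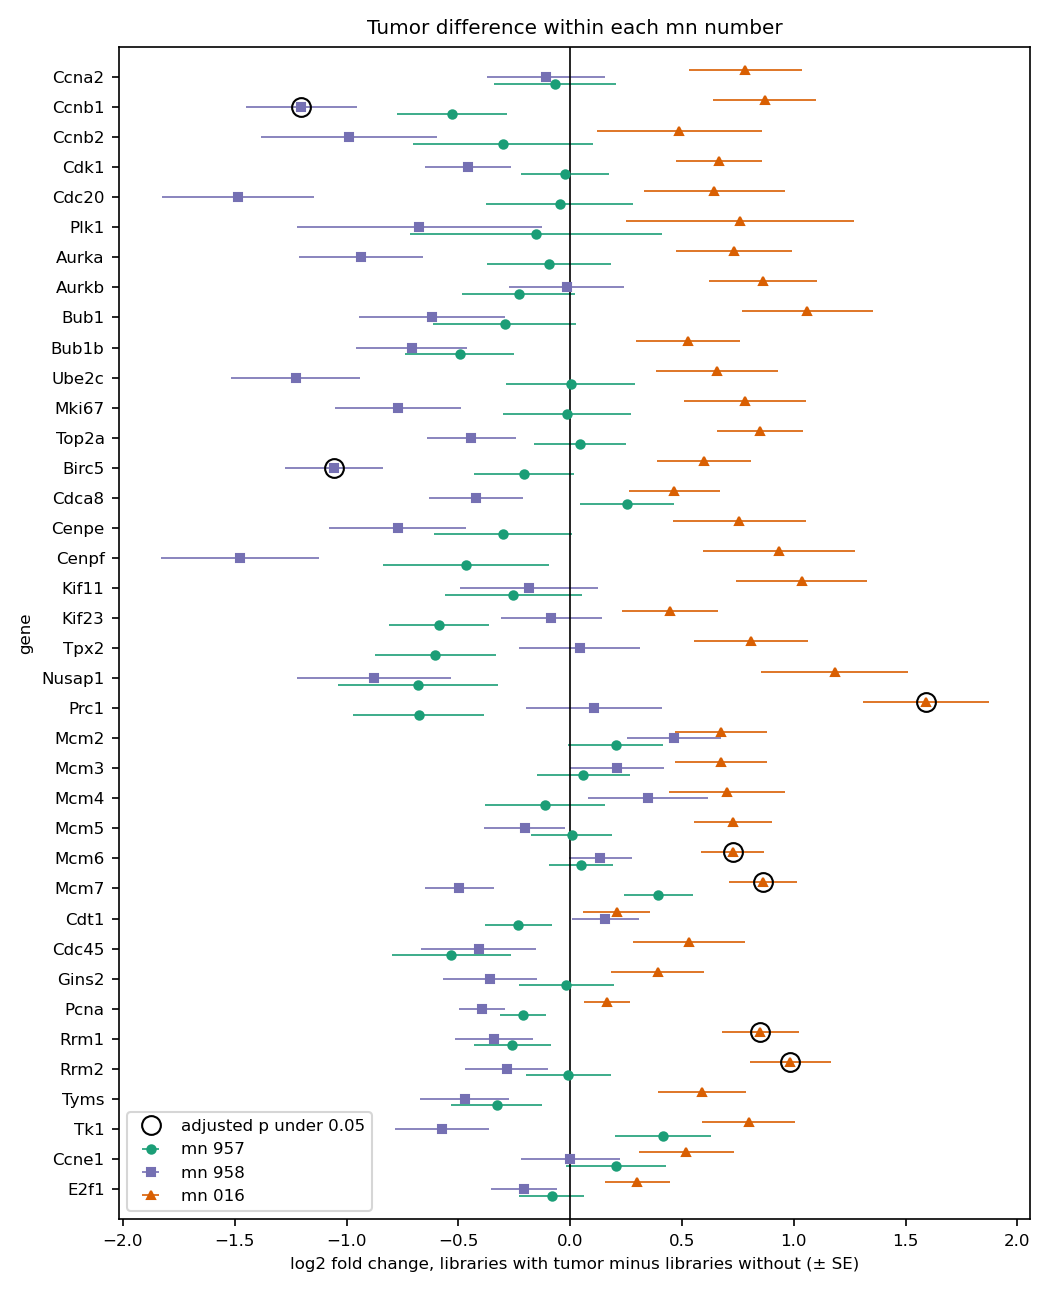
Log2 fold change between libraries with and without tumor (horizontal axis, points with SE bars) for each of the 38 genes (vertical axis), within mn 957, 958 and 016. In mn 016 every point is above 0, in mn 958 most are below, and circles mark the 5 and 2 genes with an adjusted p under 0.05.

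Summed levels by role group show the sizes involved. The mitotic cyclins and kinases summed to 580.2, 520.0, 1130 and 712.5 CPM in the libraries of mn 016, in the order Control, Myelin Alone, Tumor without Myelin, Full Tumor. In mn 958 the sums were 275.2, 175.0, 132.6 and 127.5 CPM, and in mn 957 they were 150.1, 136.0, 132.1 and 120.5 CPM. For this role group the tumor libraries of mn 958 and 957 were the lowest of their number and those of mn 016 the highest. Deoxynucleotide supply had 402.9, 365.3, 836.4 and 582.5 CPM in mn 016 and at most 219.3 CPM, in Control 958, elsewhere. The licensing and helicase group, in which Pcna takes a large part of the sum, ranged from 763.2 to 1021 CPM in mn 957 and 958 and from 1196 to 1949 CPM in mn 016.

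**Figure D5:**
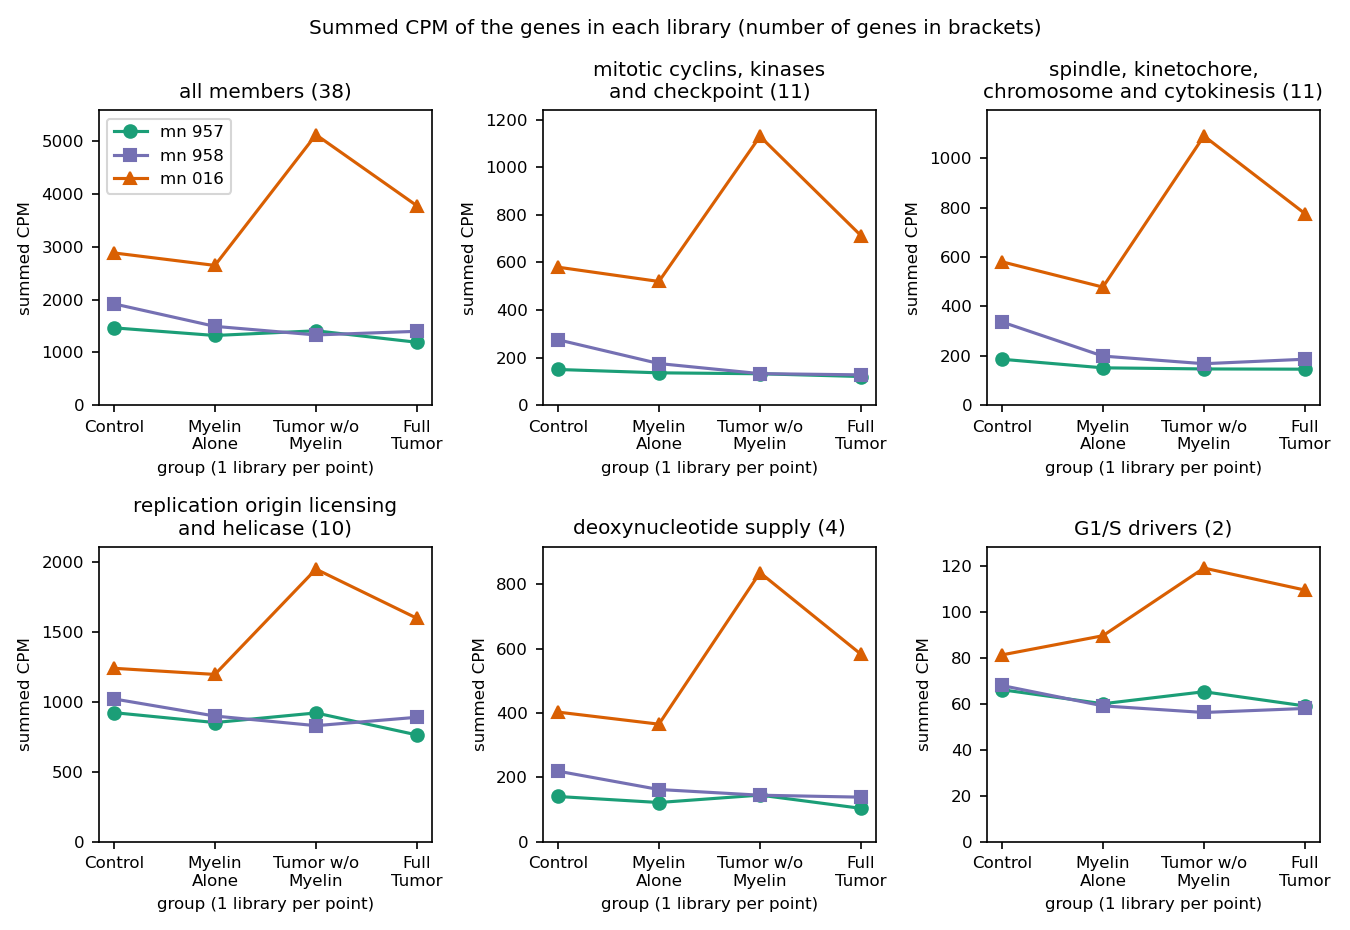
Summed CPM (vertical axes, from 0) of all 38 genes and of each role group in each group of libraries (horizontal axes), with 1 point per library, coloured by mn number. The lines of mn 016 lie above the others in all panels and peak in Tumor without Myelin.

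Other cell cycle genes were taken from lists chosen with earlier results of these data known. Of 52 further S phase genes, 43 were called higher and 0 lower in mn 016 than in mn 957, and of 69 further mitosis genes 62 were higher and 1 lower, where 8.47% of tested genes were called higher. Over mn 958 the counts were 39 and 59 higher, with 0 and 1 lower, where 21.0% of tested genes were called higher and 38.6% either way. Between groups, 0 of either list were called with group only. With the block, 1 was called in the pooled tumor effect, the condensin subunit gene Ncapg2 (0.59 ± 0.13, adjusted p = 0.0336, edgeR). In that comparison 2.25% of tested genes were called and 1.63% were called higher. In the test of the tumor effect by mn number, Cdca3 (adjusted p = 0.0278) and the cyclin gene Ccnf (adjusted p = 0.0482), named after their values were seen, passed in edgeR among the 69 mitosis genes. The share of all tested genes called in this test was 0.41%.

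Brakes and growth signals did not all move the same way. Of 16 inhibitors and pocket proteins, 15 were tested; 3 were called higher and 4 lower in mn 016 than in mn 957, where 8.47% of tested genes were called higher and 6.5% lower. Cdkn1a, the p53 target that encodes the CDK inhibitor p21, was at 457.2 to 501.0 CPM in mn 016 and 181.5 to 313.5 CPM elsewhere (adjusted p = 0.00019 for the mn number, edgeR). It was high in the same libraries as the mitotic genes. Of 19 tested p53 targets 11 were higher and 0 lower in mn 016 than in mn 957. Cdkn1b, which encodes p27, was lower in mn 016, at 11.3 to 15.3 CPM against 20.8 to 34.3 CPM (adjusted p = 0.000487). Ccnd1, cyclin D1, and Myc, a growth transcription factor, were higher there: 148.9 to 269.2 against 59.2 to 110.1 CPM for Ccnd1 and 63.3 to 90.6 against 29.2 to 53.2 CPM for Myc. Of 15 G1 cyclins and kinases, 7 were called higher in mn 016 than in mn 957 and 0 lower.

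With the block, the pooled tumor effect called Ccnd2, cyclin D2, higher (1.60 ± 0.33, adjusted p = 0.0323, edgeR) and Cdkn1c, which encodes the CDK inhibitor p57, lower (−1.29 ± 0.27, adjusted p = 0.0331). Ccnd2 was at 1.71, 2.75 and 11.9 CPM in Control and 6.68, 3.77 and 26.1 CPM in Tumor without Myelin (mn 957, 958 and 016). Csf1r, the receptor for CSF1, was at 1170 to 1796 CPM and was not called for the mn number (adjusted p = 0.0744). Without the block, neither Ccnd2 nor Cdkn1c was called. The macrophage marker genes Fcgr1 (1.58 ± 0.16, adjusted p = 0.000662), Cd14 (0.52 ± 0.11, adjusted p = 0.0335) and Adgre1 (0.38 ± 0.09, adjusted p = 0.0477) were also called higher in the pooled tumor effect with the block. Csf1r, of the same list of 11 macrophage markers, was not (0.16 ± 0.08, adjusted p = 0.465, edgeR). None of the remaining markers of that list was called either, so the 3 named are not the list as a whole. In this comparison 2.25% of tested genes were called and 1.63% were called higher. Without the block, none of these markers was called.

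Some markers of other cell types differed between the mn numbers too, not all in the same direction. Mpo, which encodes the granule enzyme myeloperoxidase of neutrophil precursors, was at 111.4, 27.2, 10.6 and 3.88 CPM in mn 016, in the same order of groups, and at most 1.10 CPM in the other 8 libraries. It was called lower in the pooled tumor effect with the block (−3.22 ± 0.41, adjusted p = 0.00218, edgeR). Within mn 016, Mpo was lower in both tumor libraries than in both others, while Mki67 was higher. Of the same list, Elane, Prtn3 and Ctsg were also higher in mn 016 than elsewhere. Csf3r was lower there, at 18.3 to 28.9 CPM against 36.2 to 68.3 CPM. S100a9 overlapped, at 0.43 to 27.2 CPM in mn 016 and 1.39 to 25.7 CPM elsewhere. The 14 neutrophil and precursor markers in the table summed to 45.3 to 338.6 CPM in mn 016 and 65.6 to 175.5 CPM elsewhere, so the sums overlapped. The 7 progenitor markers summed to 39.7 to 62.8 CPM in mn 016 and 14.2 to 32.1 CPM elsewhere; Cd34 made up 24.6 to 52.4 CPM of it in mn 016. Their part in the result was not tested.

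Several markers of tumor and glial progenitor cells were at or near 0, and others were present in all libraries. Of the 14 tumor and glial progenitor markers, Sox2, Olig2, Sox10, Bcan, Ptprz1, Gfap, Dll3 and Gpm6a were at 0 in most libraries and reached at most 1.16 CPM in any. The tumor libraries of mn 016 were among the few with counts of these genes. Gpm6a was at 0.486 CPM in Tumor without Myelin 016 and 0.662 CPM in Full Tumor 016, and at 0 elsewhere. Bcan was at 0.243 and 0.614 CPM in the same libraries and 0.37 CPM in Full Tumor 957, and Gfap at 0.425 and 0.709 CPM there and 0.343 CPM in Control 016. Ptprz1, of the same list, was highest in Tumor without Myelin 958, at 0.971 CPM. It was at 0.486 CPM in Tumor without Myelin 016 and 0.236 CPM in Full Tumor 016. All these values stand for few counts, since 3 counts are 0.142 to 0.182 CPM. The cell cycle genes were high in the tumor libraries of mn 016. In Tumor without Myelin 958 they summed to 1331 CPM, the lowest of mn 958. The part of such cells in the levels of these genes was not tested. Cspg4, at 3.36 to 19.5 CPM, and Nes, at 0.58 to 7.8 CPM, had counts in all 12 libraries. The sum of the list, 37.4 to 143.6 CPM, was mostly Pdgfb, at 28.3 to 122.2 CPM, which was lowest in mn 016. The 7 lymphocyte markers in the table summed to at most 10.2 CPM and the 3 erythroid markers to at most 1.03 CPM. The 5 oligodendrocyte markers summed to 110.8 to 161.0 CPM and the 7 endothelial and mural markers to 13.4 to 39.0 CPM.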

How the data were processed

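Messenger RNA was measured in 12 libraries, 4 groups of 3. The authors deposited raw, whole-number gene counts that were not normalized; the build is mm10, per the submitters' processing notes. Aligner, counter and strand setting: not given in the sources used here. The labels' protocols describe oligo-dT cDNA with template switching from small numbers of purified cells. Members and lists were chosen with earlier results of these data known.

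CPM were computed with TMM factors (0.965 to 1.06). The main analysis used quasi-likelihood F tests in edgeR 4.0.16 (R 4.3.3) after filterByExpr, which kept 13414 of 24728 genes, with all 12 libraries and group as the only term (8 residual degrees of freedom). Two-sided p-values were adjusted over all tested genes (Benjamini-Hochberg), with a threshold of 0.05. Standard errors are approximate: the size of the log2 fold change divided by the root of F. DESeq2 1.42.0, RLE factors, library totals, no filter, the mn number as a block and leaving out libraries were alternatives. The mn numbers pair the libraries: across genes, deviations from group means correlated by 0.12 to 0.631 in the 18 pairs with the same number, all above 0.1. Tests of the mn number had the group as a term, and those of tumor or myelin by mn number had 5 residual degrees of freedom. In the latter tests no group is repeated within a number. No 2 libraries of a group were duplicates, with a lowest chi-square of 23.9 for each degree of freedom.

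On simulated data for Full Tumor minus Control (12811 genes, 200 changed, 3 simulations), edgeR with group only recovered 8.67% of 2-fold and 51.7% of 4-fold changes with 0 false calls, and with the block 40.3% and 72.3% with a mean of 10.3 false calls. The simulation took its means and spread from the fit with the block. Each changed gene had the same change in every mn number. The rates therefore do not carry over to genes whose tumor difference had unlike directions in the numbers.

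Genes named were 16 chosen by role, every member with an adjusted p under 0.05 between groups, the 2 highest and 2 lowest members of each comparison (of which some are printed), and genes of other lists called between groups, at most 6 a comparison, with Cdkn1a, Cdkn1b, Ccnd1, Myc and Csf1r in any case; some genes under this rule are not reported here. Genes called within or between mn numbers were named after their values were seen. Totals of 17071673 to 21689624 counts set the precision: 3 counts, the limit for a count of 0, are 0.142 to 0.182 CPM, and cover counting error only.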

Additional observations from a re-analysis of the deposited data

Results flagged for a closer look

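In 20 of the 38 genes, both libraries with tumor were below both libraries without it in mn 958 and above both in mn 016. Opposite layouts in these 2 numbers, counted in either direction, were found in 6.02% of the 13414 tested genes. Differences of mean log2(CPM + 1), tumor minus no tumor, are given as mn 958 and then mn 016. Among mitotic cyclins, kinases and checkpoint genes they were Aurka −0.84 and 0.74, Bub1 −0.51 and 1.05, Bub1b −0.63 and 0.52, Ccnb1 −1.14 and 0.85, Cdc20 −1.49 and 0.62, Cdk1 −0.45 and 0.65, Ube2c −1.12 and 0.66. Among spindle and chromosome genes they were Birc5 −1.01 and 0.59, Cenpe −0.78 and 0.74, Cenpf −1.23 and 0.89, Mki67 −0.69 and 0.77, Nusap1 −0.76 and 1.15, Top2a −0.43 and 0.84. Among replication genes and S phase drivers they were E2f1 −0.20 and 0.29, Gins2 −0.36 and 0.38, Mcm7 −0.47 and 0.85, Pcna −0.40 and 0.17, Rrm1 −0.34 and 0.84, Tk1 −0.57 and 0.79, Tyms −0.45 and 0.59. The test of the tumor effect by mn number is the test of the difference itself. This test called 0 of the 38 genes in edgeR and 20 in DESeq2, where 0.41% and 2.37% of tested genes were called. It is no independent support, because earlier results of these data had shown the change of sign for a proliferation list.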

How the results depend on the processing

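The mn numbers pair the libraries, and the fit with the replicate block called 1 of the 38 genes (Mcm2) in Tumor without Myelin minus Control and 1 in the pooled tumor effect, against 0 without it. That fit called 0.745% and 2.25% of tested genes in these comparisons. With the block, the count was also 1 without the filter on low counts and in DESeq2, and 0 with RLE factors or library totals. The block changed no other count of calls between groups. These fits with the block beyond the first, and those without all libraries of 1 number in the tests of the mn number, were chosen after seeing the data.

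Without all 4 libraries of mn 016, the medians with group only were −0.395 (Tumor without Myelin minus Control), −0.501 (Full Tumor minus Control), −0.0933 (Full Tumor minus Tumor without Myelin), −0.122 (Full Tumor minus Myelin Alone), −0.293 (pooled tumor) and −0.212 (pooled myelin). With the block, the last 4 were −0.0943, −0.0896, −0.281 and −0.217, and the mn number called 3 genes. The count for mn 958 minus 957 was 10 in DESeq2 (14.9% of tested genes called). For the tumor effect by mn number it was 12 without the filter (0.72% of genes) and 20 in DESeq2 (2.37%). It was 1 with RLE factors, 2 with library totals and 1 without mn 958. Within mn 958 it was 5 without the filter (1.33%), 7 in DESeq2 (3.82%) and 0 without mn 957 or mn 016. Within mn 016 it was 10 without the filter (1.31%), 17 in DESeq2 (4.53%), 1 without mn 957 and 3 without mn 958. Where no share of all genes is given, it is not reported here, and the count cannot be set against it. The cause was not tested.

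Leaving out 1 library at a time, with group only, the medians ranged from −0.972 to 0.169 (Myelin Alone minus Control), −0.98 to 0.963 (Tumor without Myelin minus Control), −1.03 to 0.481 (Full Tumor minus Control), −1.49 to 1.08 (Full Tumor minus Tumor without Myelin), −0.737 to 0.963 (Full Tumor minus Myelin Alone), −0.316 to 0.703 (pooled tumor), −0.898 to 0.362 (pooled myelin) and −1.18 to 1.32 (interaction). With the block the same ranges were −0.595 to −0.0352, −0.291 to 0.255, −0.473 to 0.0245, −0.452 to 0.0812, −0.0346 to 0.219, −0.0938 to 0.215, −0.406 to −0.0855 (−0.149 without Control 958 and −0.173 without Myelin Alone 016) and −0.141 to 0.418. The counts of calls ranged from 35 to 36 for the mn number, 34 to 35 for mn 016 minus 957, 32 to 35 for mn 016 minus 958, 0 to 3 for mn 958 minus 957, 0 to 3 for the tumor effect by mn number, 0 to 3 within mn 958, 0 to 5 within mn 016, and 0 to 1 for the 2 Mcm2 calls with the block.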
